A study of Homo sapiens with 2 samples.

Results

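The microRNA (miRNA) content of resting, untreated MCF10A cells is described here from the 3 libraries of the non-treated group, out of 6 small RNA libraries in the study. All 947 rows of the count table were used, each row being a locus of the human genome, with or without a miRNA name. Some hairpins had more than 1 row, and some rows lay on sequences outside the named chromosomes. MCF10A is a spontaneously immortalised, non-tumorigenic human breast epithelial line that grows as a basal-like epithelium. The untreated cells were kept in normal medium at 5% CO2, and the other 3 libraries came from cells given 2 µM withaferin A, a plant steroidal lactone, for 24 h. Both groups share the line and the medium. The labels name the QIAseq miRNA kit and the NEBNext kit. They are read here as QIAseq for the untreated and NEBNext for the treated libraries, an assignment that is not certain. On that reading, treatment and kit cannot be told apart between the groups. No treated value is used below. The 3 untreated libraries belong to 1 sample record, and nothing says whether they came from separate cultures; the spread given below may therefore be technical.

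miRNAs are short RNAs cut from hairpin precursors by Drosha and Dicer and loaded into Argonaute, where the seed, bases 2 to 8 counted from the 5′ end, selects target messages by base pairing. miRNAs with the same seed form a family and can bind the same target sites, while hairpins lying close together on a chromosome can be cut from a common primary transcript, a polycistron. In breast epithelium the miR-200 family and miR-205 are known as repressors of ZEB1 and ZEB2, transcription factors that drive mesenchymal genes, and miR-205 is known as a miRNA of the basal layer. Levels below are CPM, counts scaled to a library total of 1000000 over all loci, and a value with ± is a mean with its SD over the 3 libraries. Ranks compare read counts and not molecules, and the mature sequences shown are 21 to 23 bases long, so CPM was not scaled by length.

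The sequences below are mature arms of the hairpins whose values are described, taken from RefSeq on GRCh38.p14 with the seed in capitals. The counts are per locus, and which arm gave the reads was not tested. The first pair belongs to the 2 most abundant miRNAs, from MIR21 and MIR205.
miR-21-5p: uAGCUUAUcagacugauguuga
miR-205-5p: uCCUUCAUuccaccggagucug
The let-7 sequences show how close the members of the most abundant multi-member family are to each other.
let-7a-5p: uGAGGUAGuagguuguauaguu
let-7c-5p: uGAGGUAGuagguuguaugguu
let-7e-5p: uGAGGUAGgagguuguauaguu
let-7f-5p: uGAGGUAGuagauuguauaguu
let-7g-5p: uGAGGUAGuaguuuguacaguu
let-7i-5p: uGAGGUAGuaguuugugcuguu
miR-98-5p: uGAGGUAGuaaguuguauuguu
All 7 share the seed. Counted from 1 at the 5′ end and with let-7a as the reference, let-7f differed by G12A, let-7c by A19G and let-7e by U9G. let-7g differed by G12U and U18C, miR-98 by G11A and A19U, and let-7i by G12U, A17G, U18C and A19U. Reads of members that differ at 1 base can be assigned to the wrong member, so the split within let-7 is less certain than its sum.

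The next set holds the other families whose values are given in full below.
miR-100-5p: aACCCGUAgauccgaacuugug
miR-99a-5p: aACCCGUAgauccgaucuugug
miR-148a-3p: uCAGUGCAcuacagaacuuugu
miR-26a-5p: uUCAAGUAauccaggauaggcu
miR-27b-3p: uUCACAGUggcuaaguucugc
miR-27a-3p: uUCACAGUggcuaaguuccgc
miR-30a-5p: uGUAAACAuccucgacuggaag
miR-30e-5p: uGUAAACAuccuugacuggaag
miR-221-3p: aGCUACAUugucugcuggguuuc
miR-222-3p: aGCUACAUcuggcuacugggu
miR-16-5p: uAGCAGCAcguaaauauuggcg
miR-15b-5p: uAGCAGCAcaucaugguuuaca
miR-200c-3p: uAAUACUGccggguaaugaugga
miR-141-3p: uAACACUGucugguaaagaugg
miR-99a differed from miR-100 by A16U, and miR-27a from miR-27b by U19C. miR-16 and miR-15b share the seed AGCAGCA and differed at 8 later positions. miR-200c and miR-141 come from the same primary transcript, and their seeds, AAUACUG and AACACUG, are not the same.

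The library totals were 2571073, 2615684 and 1855838 counts for libraries 1, 2 and 3. A count was present at 841, 837 and 801 loci, and 481, 482 and 424 loci had at least 10. Named loci held 98.5% ± 0.0717 (SD, n = 3) of the counts. Of the 947 loci, 717 had a count in each library, 229 in only 1 or 2 libraries, and 1 in none of them; 398 had at least 10 counts in each library. The 450 named loci merged into 374 miRNAs after joining arms and gene copies, and 1 locus per miRNA, the copy with the highest mean, held 83.9% ± 0.567 of all counts. Of these miRNAs, 331 had a count in each library, 222 had at least 10 in each, and 115 had a mean of at least 100 CPM.

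A few miRNAs held most of the counts. In libraries 1, 2 and 3, 6, 6 and 5 loci made up 50% of the counts, and 46, 43 and 47 loci made up 90%. Over miRNAs, 4 miRNAs held 50% of the summed miRNA counts and 32 held 90%. The 13 miRNAs of at least 10000 CPM held 63.7% of the library total, the 43 between 1000 and 10000 CPM held 17.5%, and the 59 between 100 and 1000 CPM held 2.34%. Below these lay 82 miRNAs of 10 to 100 CPM, 130 of 1 to 10 CPM and 47 under 1 CPM, and together the 82 held 0.287%.

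**Figure D1:**
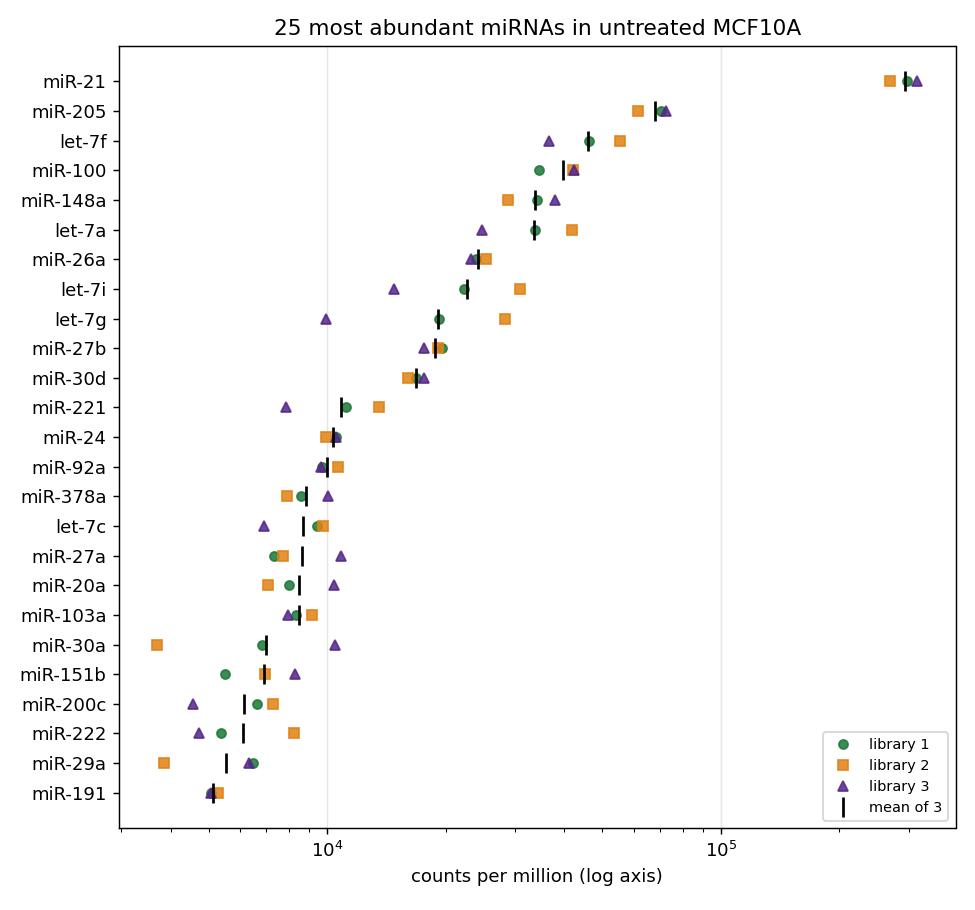
CPM (log axis) of the 25 most abundant miRNAs in each of the 3 untreated libraries, with the mean of the 3 as a black bar. miR-21 stands alone at the top, and the libraries lie far apart for let-7g and miR-30a and close together for miR-24 and miR-191.

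miR-21, which represses PDCD4 and is known as a growth-promoting miRNA of epithelia, took 29.6, 26.9 and 31.6% of libraries 1, 2 and 3. Its mean was 293821 ± 23353 CPM, 4.31 times that of the next miRNA. The MIR21 hairpin lies at chr17:59841266-59841337 on the plus strand of GRCh38, within an exon of VMP1, a gene of autophagy. It was the most abundant miRNA of every library. Its share was lowest in library 2 with plain and TMM-scaled totals, where TMM and RLE are edgeR's factors for library composition, while with RLE-scaled totals the 3 shares were 29.2, 29.2 and 29.5%.

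miR-205 was second in all 3 libraries, with 7.03, 6.15 and 7.27% of the counts. Its hairpin lies at chr1:209432133-209432242 on the plus strand, within an exon of MIR205HG, a long noncoding RNA gene. The ratio of miR-21 to miR-205 was 4.21, 4.38 and 4.34 in libraries 1, 2 and 3, so the pair kept nearly the same proportion. Only these 2 miRNAs of the first 25 held the same rank in each library.

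The first ranks were largely shared between libraries: 9 miRNAs were among the first 10 in every library, out of 11 that reached the first 10 in any, and 20 were among the first 25 in every library, out of 30. miR-30a moved most among the first 25, with ranks 20, 32 and 13 in libraries 1, 2 and 3. The 25 names together held 72.7% of the counts. miR-191, at chr3:49020618-49020709 in an intron of DALRD3, closed the list with 5061, 5292 and 5052 CPM.

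The let-7 family, known for silencing LIN28, HMGA2 and RAS messages and for rising as cells differentiate, held 13.6, 17.1 and 9.71% of libraries 1, 2 and 3. Of its 9 listed members, 7 were measured and all 7 exceeded 100 CPM; let-7b and let-7d were not analysed here. let-7f had 46327, 55273 and 36651 CPM and made up 34.8% of the family, and let-7a had 33663, 41892 and 24726 CPM. Both were highest in library 2 and lowest in library 3.

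let-7i had 22228, 30829 and 14817 CPM, and let-7g, from an intron of WDR82 at chr3:52268278-52268361, had 19195, 28239 and 9915 CPM. let-7c, from an intron of MIR99AHG on chromosome 21, had 9425, 9747 and 6928 CPM. The low-abundance members were let-7e with a mean of 3120.1 ± 209.9 CPM and miR-98 with 1336 ± 209 CPM. Library 2 was the highest for 6 of the 7 members and library 3 the lowest for all 7, also with TMM-scaled totals; with RLE-scaled totals library 2 was highest for 7 of 7. The members did not shift by the same factor: the highest library exceeded the lowest 2.85-fold for let-7g, 2.08-fold for let-7i, 1.51-fold for let-7f and 1.14-fold for let-7e.

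The miR-99/100 family, known as repressors of MTOR, held 4.16% ± 0.451 of the counts, of which miR-100 made up 95.2%. Of its 3 listed members 2 were measured, so both values rest on miR-100 and miR-99a only. miR-100, at chr11:122152229-122152308 in an intron of MIR100HG, had 34479, 42126 and 42283 CPM, lower in library 1 than in libraries 2 and 3. miR-99a had 1929.9, 1804 and 2189.8 CPM.

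The family of miR-148a, miR-148b and miR-152, known for targeting DNMT1, held 3.56% ± 0.439. miR-148a had 34141, 28866 and 37897 CPM and miR-148b 2186, 2003 and 1602 CPM. The ratio of miR-148a to miR-148b was 15.6, 14.4 and 23.7, highest in library 3. These shares count 1 locus per miRNA. With every locus of a name summed, the miR-148 family held 6.85% and the miR-26 family 5.30%, both then above miR-99/100 at 4.16%. miR-148a and miR-26a each have 2 loci with nearly equal counts, so these sums may count the same reads more than once. The changed order is therefore not a second measure of abundance.

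The miR-26 family, known for targeting EZH2, and the miR-27 family varied little as sums with plain totals. With RLE-scaled totals, miR-26a held 2.35, 2.75 and 2.16% of libraries 1, 2 and 3. The values that follow are with plain totals. miR-26 held 2.92, 3.07 and 2.68% of libraries 1, 2 and 3, with miR-26a at 23848, 25297 and 23138 CPM and miR-26b at 5384, 5431 and 3618 CPM. miR-27 held 2.68, 2.68 and 2.85%, but its members moved apart: miR-27b had 19521, 19093 and 17641 CPM and miR-27a had 7314, 7723 and 10839 CPM. The ratio of miR-27b to miR-27a was 2.67, 2.47 and 1.63, lowest in library 3.

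The miR-30 family, which is known to restrain mesenchymal genes in epithelia, held 3.26, 2.63 and 3.93% of libraries 1, 2 and 3. miR-30d was steady at 16822, 16044 and 17634 CPM and miR-30c at 3099, 3127 and 2905 CPM. miR-30a had 6842, 3699.6 and 10438 CPM, miR-30e had 3868, 2446 and 5241 CPM and miR-30b had 1999.6, 994 and 3117 CPM. These 3 were lowest in library 2 and highest in library 3, the reverse of let-7. Library 3 was the highest for 4 of 5 members with plain and with TMM-scaled totals, and for 3 of 5 with RLE-scaled totals.

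miR-221 and miR-222, known repressors of CDKN1B (p27) that are characteristic of basal-like breast cells, held 1.65, 2.18 and 1.26% of libraries 1, 2 and 3. miR-221 had 11158, 13574 and 7852 CPM and miR-222 5387, 8243 and 4727 CPM. Both were highest in library 2 and lowest in library 3 under every scaling, as was most of let-7.

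The miR-15/16 family, known for targeting cyclins and BCL2, held 0.246, 0.144 and 0.451%, a 3.13-fold range. miR-16 had 2073, 1013 and 4181 CPM, lowest in library 2, while miR-15b had 278, 346 and 192 CPM, highest in library 2. The other 4 members were under 100 CPM, the highest of them being miR-15a at 71.8 CPM. The family thus held members that moved in opposite directions between the same libraries.

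Other families are known for targets in the cell cycle. The family of miR-17, miR-20a, miR-93 and miR-106b, known for targeting CDKN1A and E2F1, held 1.79% ± 0.241, with miR-20a at 8483 ± 1704 CPM, miR-17 at 5069.9 ± 773 CPM, miR-93 at 3337 ± 88.1 CPM and miR-106b at 919 ± 164 CPM. The miR-25/92 family held 1.59% ± 0.111, with miR-92a at 9994 ± 568 CPM, miR-25 at 3729 ± 439.6 CPM, miR-92b at 1801 ± 214 CPM and miR-32 at 353 ± 117 CPM. The miR-34 family, whose genes are direct targets of p53, held 0.155% ± 0.0719, with miR-34a at 1281, 502 and 1725 CPM and miR-34c at 390.5, 269.9 and 459.6 CPM; both were lowest in library 2.

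Among metabolic and matrix-linked families, miR-378 held 1.05% ± 0.144, and miR-378a, from an intron of PPARGC1B on chromosome 5, had 8575, 7919.5 and 10021 CPM. Of the 9 listed miR-378 members 6 were measured. miR-378c and miR-378d had means of 1071 ± 323 CPM and 514 ± 55.3 CPM. miR-103a and miR-107, from introns of pantothenate kinase genes, had means of 8469 ± 597 CPM and 682 ± 105 CPM. miR-29, known for targeting collagens, held 0.693, 0.411 and 0.697%, with miR-29a at 6459.6, 3858 and 6311 CPM and miR-29b at 467, 254 and 657 CPM. Both were lowest in library 2. Of the 3 listed miR-29 members only these 2 were measured.

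Of the remaining families, miR-24 held 1.03% ± 0.0323 and the others under 1% each. miR-125a and miR-125b had means of 4249 ± 592 CPM and 3974 ± 146 CPM, miR-181a and miR-181b of 4514 ± 1315 CPM and 1954 ± 164 CPM, and miR-23b and miR-23a of 3618 ± 275 CPM and 2786 ± 300.3 CPM. miR-24 had 10516, 9949 and 10500.4 CPM, among the narrowest ranges measured with plain totals. miR-182, miR-183 and miR-96, miRNAs of sensory epithelia that are also known in breast cells, had means of 4104 ± 831 CPM, 2475 ± 169 CPM and 877 ± 394 CPM. Of these, miR-183 varied least.

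Several families with 1 measured member or with lower levels came next. miR-151b had 5514, 6929 and 8275 CPM, highest in library 3, and miR-22 had a mean of 1521 ± 159.7 CPM. Further down the list, miR-320a stood at 997 CPM, miR-31 at 970.1 CPM, miR-146b at 696 CPM and miR-146a at 258 CPM. miR-374b and miR-374a had 654 CPM and 462 CPM, miR-19b and miR-19a 412 CPM and 180.3 CPM, miR-18a 159 CPM, and miR-10a 112 CPM. miR-130a and miR-130b had means that both round to 114 CPM, yet their ratio was 1.38, 0.423 and 2.06 in libraries 1, 2 and 3. The 36 listed groups, with 97 measured members, summed to 80.9% of the counts. They include miR-182, miR-183 and miR-96, which were grouped by their transcript and do not share 1 seed.

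**Figure D2:**
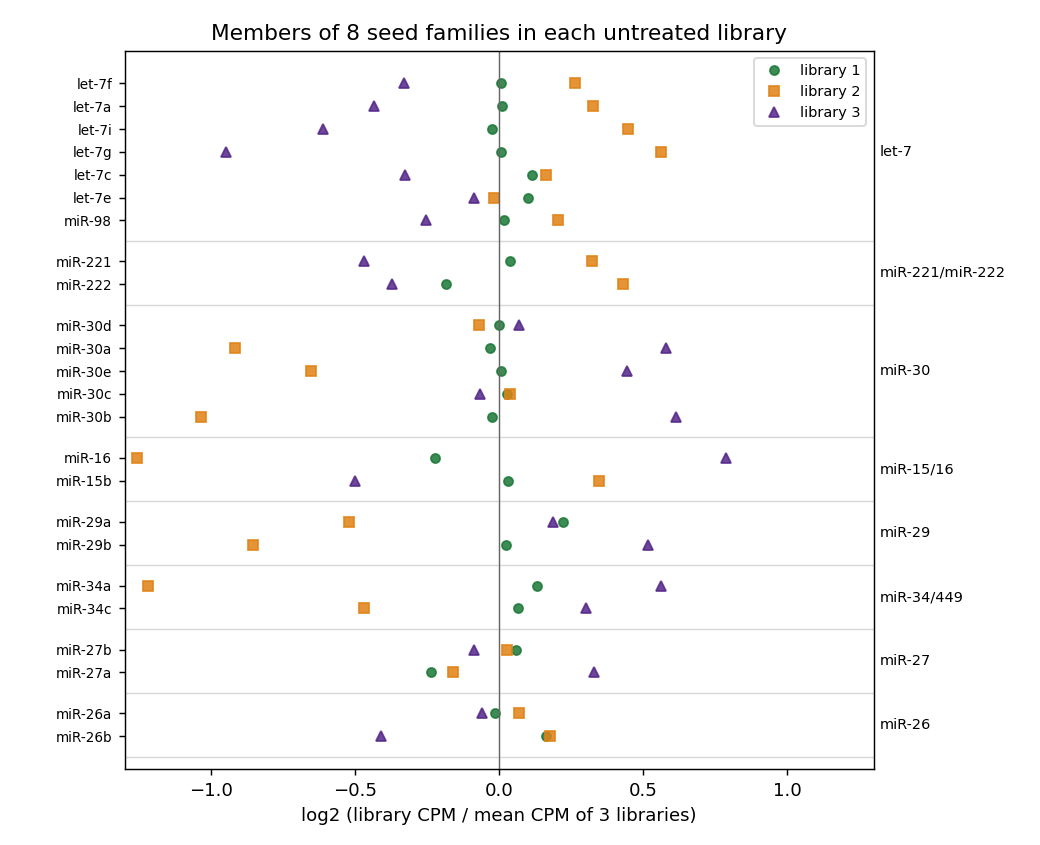
Members with a mean of at least 100 CPM in 8 seed families, each library's CPM over the mean of the 3 libraries on a log2 scale. let-7 members other than let-7e, miR-221 and miR-222 lie to the right in library 2 and to the left in library 3; miR-30a, miR-30e, miR-30b, miR-16, miR-29 and miR-34 members lie the other way, and miR-27b and miR-26a stay near 0.

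The spread between libraries exceeded counting error for abundant miRNAs. Among the 115 miRNAs of at least 100 CPM, the median coefficient of variation (CV, SD over mean of CPM) was 19.7%, with a range of 0.868% to 73.5%. Median CVs were 11.3% at 10000 CPM or more, 17.7% at 1000 to 10000 and 21.0% at 100 to 1000, where counting alone gives medians of 0.420%, 1.08% and 3.54%. The gap closed at low levels: at 1 to 10 CPM the median CV was 43.1% and counting error 37.4%. edgeR's common biological coefficient of variation over 398 loci was 26.0%, and it was 18.3% without library 2, 21.5% without library 3 and 34.1% without library 1.

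**Figure D3:**
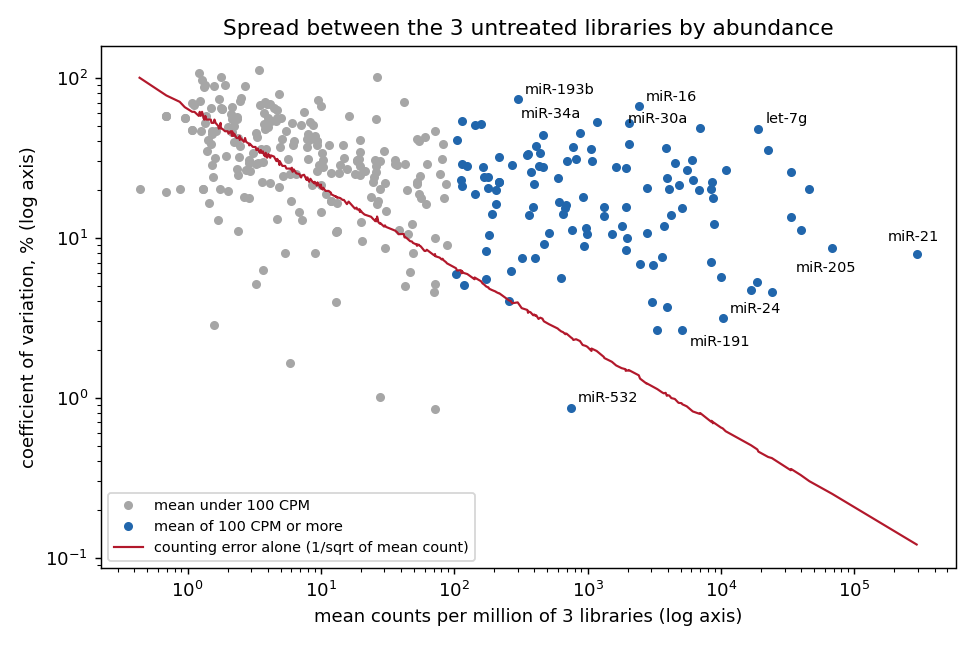
Coefficient of variation over the 3 untreated libraries against mean CPM (both log axes) for miRNAs with a count in each library, with the counting error expected from the mean count as a line. Points of 100 CPM or more lie mostly far above the line, at a median of 19.7%, and miR-532 lies below it.

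Libraries 2 and 3 were the farthest apart. Across the 115 miRNAs, the correlation of log2 CPM was 0.987 between libraries 1 and 2, 0.989 between 1 and 3, and 0.961 between 2 and 3; this is across miRNAs of the same line and is a description only. Libraries 2 and 3 differed over 2-fold for 18 miRNAs, against 5 for libraries 1 and 2 and 2 for libraries 1 and 3. Of the 18, let-7g, let-7i, miR-128, miR-130b and miR-1303 were higher in library 2. The 13 higher in library 3 were miR-30a, miR-30e, miR-30b, miR-16, miR-101, miR-34a, miR-96, miR-29b, miR-342, miR-19b, miR-193b, miR-18a and miR-141. With TMM-scaled totals 7 were higher in library 2 and 11 in library 3, and with RLE-scaled totals 12 and 9; let-7g, let-7i, miR-128, miR-130b and miR-1303 stayed among those of library 2.

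Which library was highest depended on the scaling. With plain totals, library 3 was highest for 62 of the 115 miRNAs and library 2 for 38. With TMM-scaled totals the counts were 54 and 47, and with RLE-scaled totals 46 and 56. The median log2 difference of library 2 minus library 3 was -0.18 with plain totals, -0.05 with TMM and 0.04 with RLE. The median log2 shifts are small beside those of let-7, whose median was 0.59 with plain totals, 0.72 with TMM and 0.81 with RLE, and miR-30, whose median was -1.10, -0.98 and -0.88.

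Of the 115 miRNAs, 64 stayed within 1.5-fold between the highest and lowest library, 18 exceeded 2-fold and 4 exceeded 3-fold. The widest range belonged to miR-193b, a miRNA known for repressing PLAU in breast cells, with 261, 101 and 536 CPM in libraries 1, 2 and 3, a 5.33-fold range. miR-16 ranged 4.13-fold, miR-34a 3.44-fold and miR-30b 3.13-fold. All 4 were lowest in library 2. let-7g, miR-30a, miR-141 and miR-18a followed with 2.85, 2.82, 2.76 and 2.75-fold.

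With plain totals, the narrowest were spread over the abundance range. miR-532, of an X-linked hairpin group, had 749, 740.2 and 753 CPM and a CV of 0.868%, below its counting error. miR-191 ranged 1.05-fold, miR-93 1.05-fold, miR-24 1.06-fold and miR-125b 1.08-fold. The set depends on the scaling. With RLE-scaled totals miR-191 held 0.499, 0.574 and 0.472% and miR-24 held 1.04, 1.08 and 0.981% of libraries 1, 2 and 3. With 3 libraries a CV this small is itself poorly determined.

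As background, hairpins of the same primary transcript are cut out and turned over separately and need not give equal amounts of mature miRNA. In 28 of the 38 listed polycistrons at least 2 members were measured, and the highest member exceeded the lowest by a median of 5.50-fold. The ratio was under 3 in 8 of the 28 and over 10 in 9. The 9 include mir-106a-363 and mir-15a-16-1, whose highest members, miR-92a and miR-16, have equal or nearly equal counts at another gene copy. They also include mir-143-145, where miR-145 had very few counts. Such ratios also enter the median.

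Balanced polycistrons included mir-221-222 on chromosome X, where miR-221 exceeded miR-222 by 2.07, 1.65 and 1.66-fold in libraries 1, 2 and 3. In mir-99b-let-7e-125a on chromosome 19 the ratio of miR-125a to let-7e was 1.22, 1.59 and 1.28. Only these 2 of its 3 listed members were measured, so the balance of the whole transcript is not known. In mir-424-503-542-450, 4 of 6 listed members were measured, and all of these lay under 30 CPM. In mir-193b-365a the order itself turned, with ratios of miR-193b to miR-365a of 1.17, 0.614 and 2.07; miR-365a had a mean of 215 ± 48.3 CPM, with counts equal to those of miR-365b.

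In mir-106b-25, which lies within MCM7, miR-25 exceeded miR-106b by 3.95, 3.85 and 4.48-fold. In mir-23b-27b-24-1, within C9orf3 on chromosome 9, miR-27b exceeded miR-23b by 5.31, 4.95 and 5.31-fold, nearly the same in each library. The paralogous mir-23a-27a-24-2 on chromosome 19 was less even between libraries, the ratio of miR-27a to miR-23a being 2.47, 2.61 and 4.44. In the transcript of miR-183, miR-96 and miR-182, miR-182 exceeded miR-96 by 4.36, 7.14 and 3.95-fold, with miR-96 lowest in library 2.

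The 3 members of mir-100-let-7a-2-125b-1, all within MIR100HG on chromosome 11, had a ratio of miR-100 to miR-125b of 8.67, 11.01 and 10.27 and of miR-100 to let-7a of 1.02, 1.01 and 1.71. The paralogous mir-99a-let-7c-125b-2, within MIR99AHG on chromosome 21, had the opposite order of its first pair, let-7c exceeding miR-99a by 4.88, 5.40 and 3.16-fold. let-7a and miR-125b have further gene copies, so their reads cannot be assigned to a transcript.

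Unequal polycistrons included mir-17-92a-1 within MIR17HG on chromosome 13, known for promoting growth through BCL2L11. miR-92a at 9994 ± 568 CPM exceeded miR-18a, with 136, 91.0 and 250.0 CPM, by 62.8-fold, and by 38.5 to 117-fold across the libraries. But miR-92a has a further gene copy on chromosome X with equal counts, so its reads cannot be assigned to this transcript. miR-20a exceeded miR-17 by 1.60, 1.63 and 1.76-fold, which was steady. In the X-linked paralog mir-106a-363, miR-106a had a mean of 87.0 CPM, miR-20b of 30.2 CPM and miR-363 of 10.4 CPM. Its miR-92a-2 and miR-19b-2 loci held counts equal to those of chromosome 13.

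miR-200c exceeded miR-141 by 53.0, 90.8 and 20.6-fold in libraries 1, 2 and 3. miR-200c was lowest in library 3 and miR-141 lowest in library 2, so the pair moved in opposite directions. In mir-200b-200a-429 on chromosome 1, miR-200b had 269.9, 248 and 280.2 CPM, miR-200a 19.1, 8.41 and 16.2 CPM and miR-429 7.39, 1.91 and 3.23 CPM. miR-16 exceeded miR-15b of mir-15b-16-2 by 7.39, 2.89 and 21.6-fold, but miR-16 has a further gene copy on chromosome 13 with nearly equal counts, so its reads cannot be assigned to this transcript. miR-34c exceeded miR-34b by 55.8, 54.3 and 38.8-fold. In mir-29a-29b-1, miR-29a exceeded miR-29b, which has a further gene copy on chromosome 1, by 13.8, 15.2 and 9.60-fold, and in mir-30b-30d, miR-30d exceeded miR-30b by 8.41, 16.1 and 5.66-fold.

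**Figure D4:**
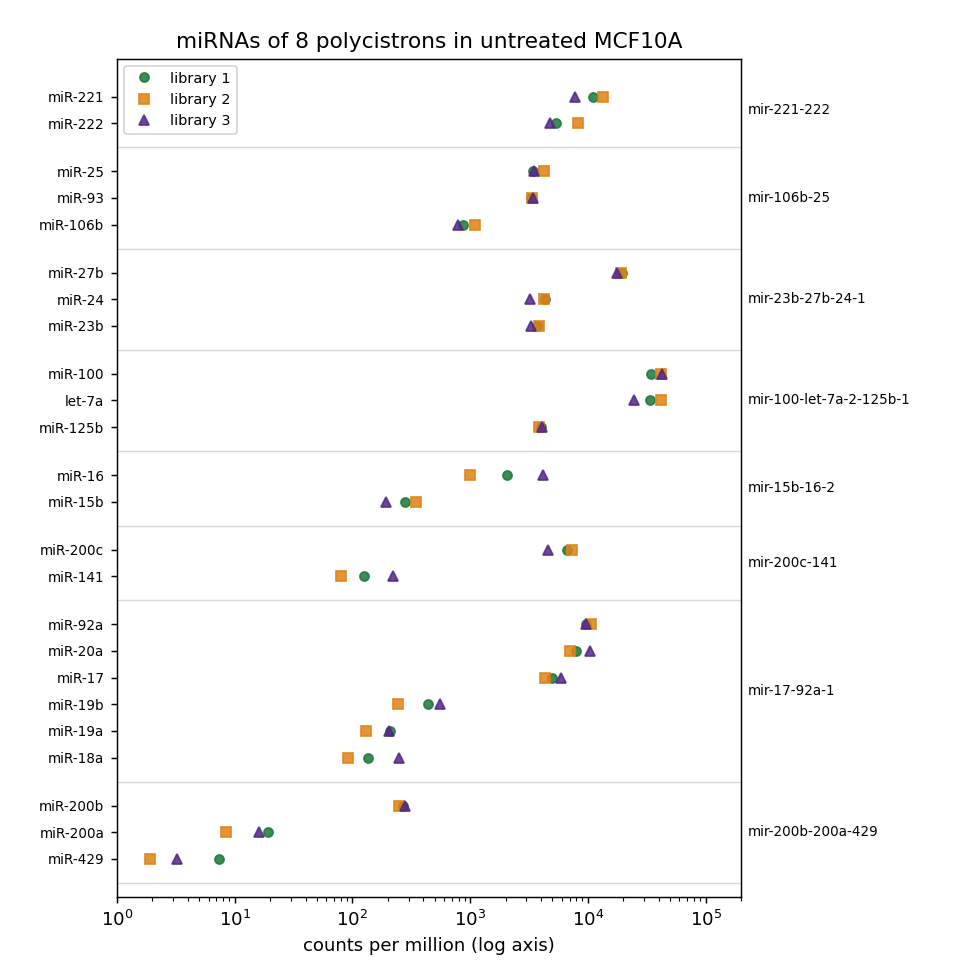
CPM (log axis) of each measured member of 8 polycistrons in the 3 untreated libraries. Members of mir-221-222 and mir-106b-25 lie within 5-fold, while miR-92a and miR-18a, miR-200c and miR-141, and miR-200b and miR-429 lie over 40-fold apart by their means.

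Gene copies and repeated rows of the same hairpin shaped the table. Among miRNAs with at least 50 counts, 32 lay at more than 1 locus, and 19 sets of loci, 40 loci in all, had exactly equal counts in every library. In 7 sets the loci carried different 5p names and RefSeq holds both arms: miR-92a-1 and -2, miR-103a-1 and -2, miR-24-1 and -2, miR-128-1 and -2, miR-29b-1 and -2, miR-19b-1 and -2, and miR-365a and b. In all 7 the 5p sequences differ and the 3p sequence is identical. The miR-92a sequences show this.
miR-92a-1-5p: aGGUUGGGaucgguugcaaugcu
miR-92a-2-5p: gGGUGGGGauuuguugcauuac
miR-92a-3p: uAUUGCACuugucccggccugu
Both miR-92a loci, on chromosomes 13 and X, held 24987, 27848 and 17846 counts in libraries 1, 2 and 3. The arm in a locus name was therefore not used here, and 364 of the 450 named loci carry a 5p name, 11 a 3p name and 75 none.

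miR-148a and miR-24 had separate loci named for each arm on the same chromosome. The miR-148a loci on chromosome 7 had nearly equal counts, 87778, 75505 and 70330 under the 3p name and 85691, 73812 and 68966 under the 5p name. The miR-24 3p locus on chromosome 19 had 27037, 26023 and 19487 counts, while the miR-24-2 5p locus had 11023, 11024 and 5982, the same as miR-24-1 on chromosome 9. Which reads the 2 loci of a hairpin share was not tested.

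The label of a breast epithelial line was checked against marker miRNAs. All 5 epithelial markers of the miR-200 family had counts in each library and summed to 0.704, 0.762 and 0.508%. A count in each library was common, being found for 331 of all 374 miRNAs. Of the 5 markers, 3 had a mean of at least 100 CPM, while miR-200a and miR-429 lay far below it. miR-200c made up nearly all of the sum, with 6614, 7286 and 4559 CPM. The basal marker miR-205 stood higher still, at 68185 CPM, and miR-203a, a miRNA of stratified epithelium known for targeting TP63, had 167, 169 and 185 CPM. miR-205 exceeded miR-203a by 420.3, 363 and 393-fold.

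Markers of luminal and hormone receptor-positive breast cells were mixed. miR-342 had 439, 293 and 594 CPM and miR-193b the values given above, while miR-375, known as a luminal and estrogen receptor-linked miRNA, had 6.61, 10.7 and 11.9 CPM and miR-190b 6.61, 9.94 and 11.3 CPM. The list summed to 0.0760% ± 0.0371.

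Mesenchymal and stromal markers were low. Of 5 listed, 4 were measured and summed to 46.0 ± 5.46 CPM, none above 100 CPM. miR-143 had 47, 34 and 45 counts, and miR-145, of the same transcript, had 1, 0 and 4 counts in libraries 1, 2 and 3. miR-199a and miR-199b had equal counts of 31, 39 and 24, so the sum may count the same reads under both names. miR-214 and the endothelial marker miR-126 were not analysed here.

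Blood cell markers were also low, at 90.4 ± 27.2 CPM for 5 measured of 6 listed. The red cell and platelet miRNA miR-486 led with 102, 52.8 and 87.3 CPM. miR-142, a pan-leukocyte miRNA, had 20, 13 and 20 counts, the myeloid miR-223 had 4, 3 and 4, the erythroid miR-144 had 1, 1 and 0, and the lymphoid miR-150 had 0, 1 and 0. The limit that 3 counts set was 1.17, 1.15 and 1.62 CPM in libraries 1, 2 and 3, for counting error only, so miR-150 and miR-144 lay under it.

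The liver miRNA miR-122 had 77.8, 40.1 and 39.9 CPM, highest in library 1. Of the muscle list, miR-1 had 2, 8 and 3 counts and miR-499a 10, 5 and 14. The gut list was higher, with miR-192 at 635, 497 and 695 CPM, miR-194 at 172, 114 and 203 CPM and miR-215 at 27.2, 31.7 and 31.8 CPM. miR-184 and miR-204, miRNAs of lens and pigment epithelium, had 5, 2 and 1 and 4, 10 and 3 counts.

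In the neural list, miR-128 stood far above the others with 1018, 1475 and 717 CPM, highest in library 2. miR-9 had 45.9, 44.0 and 55.0 CPM, miR-138 26.4, 11.5 and 40.4 CPM, miR-137 9, 7 and 9 counts and miR-129 6, 7 and 4 counts. miR-7, abundant in endocrine cells, had 3863, 4882 and 3042 CPM and ranked 32 among all miRNAs. Of 48 measured miRNAs on lists of other lineages, 44 lay under 100 CPM, the 4 above being miR-7, miR-128, miR-192 and miR-194. Over all 374 miRNAs, 115 had a mean of at least 100 CPM, so most miRNAs of any kind lay under it. The imprinted group described below made up 24 of the 48. The 48 summed to 0.621% of the counts, and 125 were listed in all.

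**Figure D5:**
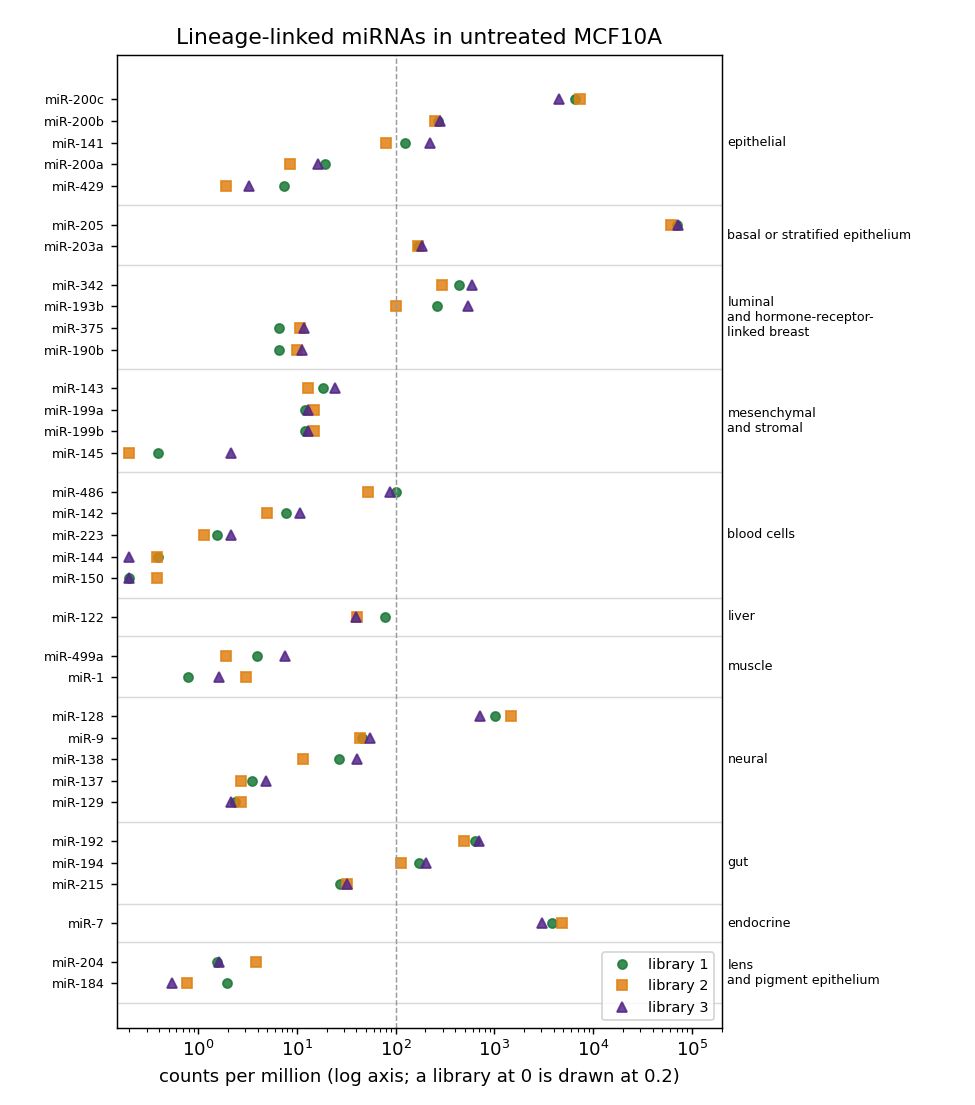
CPM (log axis) of each measured miRNA of 11 lineage lists in the 3 untreated libraries, with a dashed line at 100 CPM and libraries at 0 drawn at 0.2. miR-205 and miR-200c lie at the right, while mesenchymal, blood, liver, muscle and lens miRNAs lie at or left of the line. miR-7, miR-128, miR-192 and miR-194 of other lineages also lie right of it, and the epithelial miR-200a and miR-429 lie left of it.

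The imprinted DLK1-DIO3 region of chromosome 14 holds a large miRNA group expressed from the maternal chromosome in embryo and brain. Of its 46 listed miRNAs 24 were measured, 17 of them with a count in each library, and they summed to 132 ± 2.15 CPM. miR-381 alone had 59.1, 39.0 and 59.8 CPM, and miR-379 and miR-494 had 13.7 CPM and 12.9 CPM; the other 21 lay at 0.13 to 6.89 CPM. Of the placental C19MC group on chromosome 19, 1 of 36 was measured, miR-523 with 0, 1 and 0 counts. The pluripotency miRNAs miR-302a to d, miR-367, miR-371a, miR-372 and miR-373 were not analysed here.

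Loci without a miRNA name numbered 497 and held 1.45% ± 0.0717 of the counts, 19 of them at 100 CPM or more. The highest, on chromosome 19, had 3791, 3234 and 3420.0 CPM, above all but 35 of the named miRNAs. The next, on chromosome 1, had 1122, 1625 and 911 CPM, and that on chromosome 20 had 907, 1865 and 585 CPM. Those on chromosomes 6 and 17 had means of 931 ± 367 CPM and 765 ± 80.2 CPM. The loci on chromosomes 1, 20 and 6 were highest in library 2 and lowest in library 3, and those on chromosomes 19 and 17 were highest in library 1.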

How the data were processed

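The authors deposited a table of raw counts per locus and a second table of normalized values, treated here as a score with no fixed unit. The tools named in the submitters' processing notes are cutadapt, Trim Galore and edgeR, and the build is GRCh38.p7. The aligner, the counting rule and any use of molecular identifiers are not given in the sources used here. From the counts, CPM was computed on each library's total (1855838 to 2615684), and the mean, SD and CV over 3 libraries. Every locus of the deposited score table scaled with its count (0.451, 0.462 and 0.619 units per count in libraries 1, 2 and 3, 660 loci), so the scores were used only as an alternative. Arms and gene copies were merged to 1 locus per miRNA, the copy with the highest mean. edgeR 4.0.16 in R 4.3.3 gave TMM and RLE factors and the dispersion of an intercept-only design, after loci with fewer than 10 counts in any library were left out; the script was tested on simulated data. Python 3.11.15, pandas 2.3.3 and numpy 2.4.6 did the rest. Sequences and hairpin positions are RefSeq's on GRCh38.p14, and 384 of 450 named loci matched; host genes are from GENCODE 29. No comparison between groups and no test was made.

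No pair of the 3 libraries held identical counts, and their differences exceeded counting noise (chi-square per degree of freedom 94.0 to 294). Whether technical repeats of 1 RNA could also differ by this much was not tested. The members and lists were chosen with earlier results of these data known. Named in the text were the 25 miRNAs with the highest mean, members of listed families and polycistrons of at least 100 CPM, the leading member of each lineage list, the 8 widest and 5 narrowest ranges at 100 CPM or more, the 5 highest unnamed loci and hairpins with loci for both arms; other members are given to fill out their group, and the groups in the other observations and the names over 2-fold apart were chosen after their values were seen. Alternatives were another denominator, TMM and RLE scaling, the deposited scores, summed copies, other count minimums, thinning to the smallest total, and leaving out each library.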

Additional observations from a re-analysis of the deposited data

How the results depend on the processing

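No paired analysis was possible because only 1 group was described and no comparison was made. Over 44 alternatives for the summary values, 37 stayed within their spread or within 1.5-fold and 7 moved; over 594 for single miRNAs, families and counts, 541 stayed and 53 moved, 50 upward and 3 downward. Counting copies once in the total raised the share of the 10 most abundant loci from 63.2% to 74.1%, the families' sum from 80.9% to 94.8% and miR-21 from 29.4% to 34.4%, since the denominator is smaller by construction. Summing every locus of a name gave 94.1% for the families, changed their order, and raised by over 1.5 times miR-148/152 from 3.56% to 6.85%, miR-26 from 2.89% to 5.30%, miR-24 from 1.03% to 1.81%, miR-25/92 from 1.59% to 2.59%, miR-103a with miR-107 from 0.915% to 1.76%, miR-15/16 from 0.281% to 0.521%, miR-19 from 0.0593% to 0.1005%, miR-22 from 0.152% to 0.304%, and miR-181 to 1.28%. Loci with equal or nearly equal counts may hold the same reads, so these summed shares may count reads more than once. Taking 10 miRNAs in place of 10 loci gave 60.2%. The median CV over loci of 22.4% became 40.3% with no filter on low counts, which adds low loci. Leaving out each library gave 13.2% to 24.2% for this CV, the lowest without library 2; the cause was not tested. The same step gave 62.9% to 63.4% for the 10 loci, 80.6% to 81.1% for the families, 28.3% to 30.6% for miR-21, 0.565% to 0.675% for the other lineages, a polycistron ratio of 5.07 to 5.85 and 404 to 445 loci of at least 10 counts. With at least 10 counts required in each library, 19 miRNAs of other lineages counted as detected, against 37 with any count in each. The direction counts by TMM and RLE were added after seeing the data. Below about 10 CPM counting error is of the size of the spread, so single values there are not resolved at this depth, and with 3 libraries of 1 record no SD can be split into technical and culture parts.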

Other observations

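Chromosome X held 38 of the merged miRNAs, 12 of them at 100 CPM or more. miR-224 and miR-452, which lie in introns of GABRE, had 1552, 2128 and 1234 CPM and 596, 643 and 665 CPM in libraries 1, 2 and 3, and their ratio was 2.60, 3.31 and 1.85. In the group of miR-188, miR-362, miR-500a, miR-501, miR-502, miR-532 and miR-660, which lies within CLCN5, miR-532 led at 747 CPM, followed by miR-660 at 179.7 CPM, and the others lay at 11.4 to 77.8 CPM. The 9 measured miRNAs of the miR-506 to miR-514 group, known from testis and melanocytes, summed to 821 ± 125 CPM. Of these, miR-514a had 674, 581 and 799 CPM, equal at its 3 loci, miR-509 had 73.5, 75.7 and 100.2 CPM, and the other 7 lay at 1.23 to 23.8 CPM.

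Among miRNAs of the HOX clusters, miR-10a and miR-196b had means of 112 ± 25.7 CPM and 103 ± 6.07 CPM, miR-615 of 59.9 ± 25.6 CPM, miR-196a of 8.99 ± 3.88 CPM and miR-10b of 5.05 ± 2.82 CPM. miR-10a exceeded miR-10b by 12.0, 35.6 and 32.8-fold. miR-31, at chr9:21512115-21512185 in MIR31HG, had 998, 848 and 1065 CPM; MCF10A is known to lack CDKN2A, which lies on the same arm of chromosome 9. miR-944, from an intron of TP63, the basal cell transcription factor, had 46.7, 56.2 and 66.8 CPM. miR-135b had 585, 461 and 744 CPM, while its paralog miR-135a had 1, 5 and 0 counts. The hypoxia-induced miR-210 had 46.3, 29.1 and 52.8 CPM.

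Of the 115 miRNAs at 100 CPM or more, 36 were on none of the lists. The highest were miR-423 at 2771 ± 565 CPM, miR-101 at 2032 ± 779 CPM, miR-186 at 1927 ± 529 CPM, miR-224 at 1638 ± 453 CPM and miR-340 at 1322 ± 180.3 CPM. miRNAs numbered 1000 and above counted 108 of the 374, held 0.266% of the counts, and 4 of them reached 100 CPM: miR-1260b, miR-1307, miR-1303 and miR-3613.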
